A study of Mus musculus with 12 samples.

Results

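Cultured colon fibroblasts labelled Prkcz-/- were compared with cells labelled wild type, both carrying the control guide sgScr. The comparison used 8 of the 12 libraries of the series, 4 per group, and the 12676 of 23106 genes whose mean was at least 10 normalised reads over all 12 libraries. A normalised read is 1 read per 10000000 reads assigned to genes. Differences are given as knockout-labelled minus WT-labelled. All cells came from colons of C57BL/6 mice aged 12 weeks, received no treatment, grew in medium with 10% serum and were harvested 24 h after plating at about 80% confluency. The remaining group, Prkcz-/- with a guide named sgSox2, served only the gene filter and the estimate of spread. How the knockout was made, the guide sequences, and whether each group was a clone, a line or pooled animals go unstated in the labels. The replicates are called biological, but nothing says that they came from separate animals or cultures, and a p-value here speaks only of the spread among the libraries, which may be technical.

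The product of Prkcz is the zeta isoform of protein kinase C. It belongs to the atypical isoforms, which bind the polarity proteins of the PAR6 and PAR3 families and the scaffold p62 and do not respond to diacylglycerol. Fibroblasts of the colon build the collagenous matrix and the basement membrane under the epithelium, and secrete growth factors, BMP and WNT regulators and chemokines. The control guide is the condition in which the knockout can be read without the Sox2 guide.

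Reads of the targeted gene did not support the genotype labels. Prkcz (chr4:155260129-155361361, GRCm38) gave 0, 0, 0 and 0 in the WT-labelled libraries and 26.4, 23.3, 9.39 and 25.9 in the knockout-labelled libraries, in normalised reads. No read came from the WT-labelled libraries, and the knockout-labelled ones held a few. The deleted part of the gene is not stated, and a 3' tag outside it would check nothing, so the groups are called WT-labelled and knockout-labelled throughout and every direction rests on those labels.

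The 8 libraries held 2.77 to 4.92 M reads, and log2 values correlated across genes at 0.97 to 0.98 within groups and 0.77 to 0.79 between them. The fibroblast label fitted the markers in part: 11 of 12 defining genes were tested, 8 rose and 3 fell, and their summed level went from 72798 to 77483 normalised reads in the WT-labelled libraries to 212631 to 232286 in the knockout-labelled ones. Thy1, a surface glycoprotein of fibroblasts, went from 942 ± 88.9 to 146 ± 7.07 normalised reads (mean ± SD, n = 4), and Dcn, the proteoglycan decorin, from 1374 ± 93.8 to 55.3 ± 20.4. Markers of other cell types summed to low levels in both groups: epithelial markers totalled 131 to 174 and 3.24 to 18.3 normalised reads, immune markers 23 to 39 and 40.7 to 74.4, and endothelial markers 23.9 to 42.7 and 20.3 to 26.2. Of the 12 epithelial, 10 immune and 8 endothelial markers, 2, 5 and 3 had no read in any of the 8 libraries. Mesothelial markers were the exception, at 1136 to 1296 against 10.2 to 16.2 normalised reads, nearly all from Msln, the surface protein mesothelin. Smooth muscle markers stood at 486 to 536 against 1081 to 1142, with Lmod1, an actin nucleator of smooth muscle, going from 8.03 ± 6.31 to 654 ± 23.4. Lmod1 alone made up most of the knockout-labelled sum. Of 5 smooth muscle markers tested 2 rose, 1 fell and 2 were not called, with a median log2 change of 0.16. The remaining lists (enteric glia and neurons, pericytes, interstitial cells of Cajal, adipocytes, skeletal muscle) summed to at most 408 normalised reads in any library, except chondrocyte markers, at 877 to 1155 against 453 to 608. In such bulk samples fewer cells of a type and less RNA per cell cannot be told apart, and the part of these cells in the results was not tested.

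The difference between the groups was wide. Of the 12676 genes, 8493 were called at a limma adjusted p under 0.05, which is 67%, with 4760 (37.6%) higher and 3733 (29.4%) lower in cells labelled as knockout. The median over all 12676 log2 changes was 0.12, and list medians below are read against it. Counts of called genes in lists and on chromosomes are read against the 37.6% and 29.4%, and say little where near them. The size of the changes varied widely: 2629 called genes had risen 2-fold or more and 1668 had fallen as far, and 884 changed at least 8-fold. Called-higher genes gained 21.8% of a library's reads in sum, and called-lower genes changed by -22.4%. Groups did not overlap in 8366 of the genes tested (66.0%). Most genes named below were chosen among called genes with groups apart, and list members from both directions. Lack of overlap and opposite directions among them follow from that choice.

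**Figure D1:**
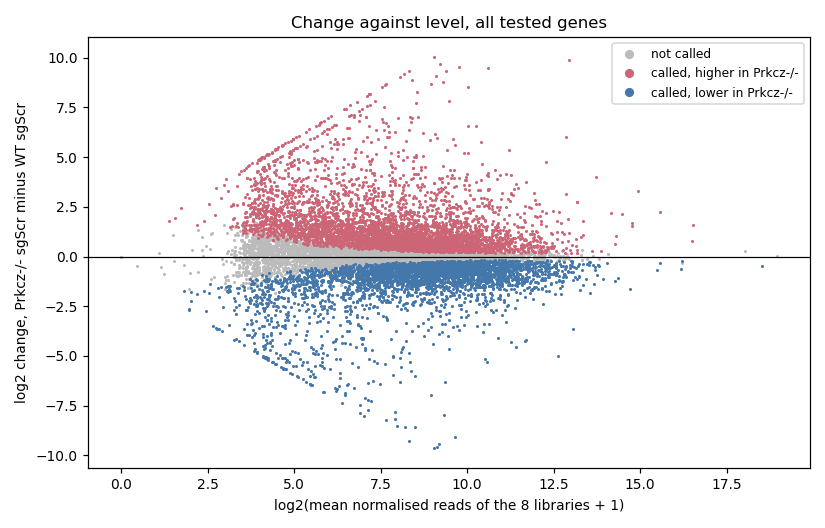
Log2 change (knockout-labelled minus WT-labelled, y axis) against log2 of the mean normalised reads of the 8 libraries plus 1 (x axis), a point per tested gene, coloured by whether it was called higher, called lower or not called. Genes called in either direction lie across all levels, 4760 above and 3733 below 0.

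The largest gains of reads were led by Malat1 and by matrix genes, in a ranking of called genes with groups apart that leaves out predicted genes, Rik clones, ribosomal protein genes and mitochondrially encoded genes. Of the genes so left out, the predicted gene Gm42418 went from 434269 ± 58308 to 311771 ± 27896, a wider change in reads than that of any ranked gene (log2 change -0.47, SE 0.17, limma adjusted p = 0.021, no longer past the threshold without WT-labelled replicate 2 or 3, without knockout-labelled replicate 1 or with quantile scaling). It was named after its values were seen. Malat1, a nuclear noncoding RNA, had 54931, 45777, 45998 and 42221 in the WT-labelled libraries and 139108, 142060.0, 150249.8 and 136318 in the knockout-labelled libraries, in normalised reads (log2 change 1.59, SE 0.16, limma adjusted p = 2.4e-07). The groups did not overlap, and the gain alone equalled 0.947% of a library. Timp3, a matrix-bound inhibitor of metalloproteinases, went from 6564 ± 283 to 29771 ± 1719 and Postn, the matricellular protein periostin, from 227 ± 45.7 to 14452 ± 1145. The losses included abundant genes of protein folding and of the nucleolus. Hsp90ab1, a cytosolic HSP90 chaperone, had 42381, 40501, 38438 and 41108 in the WT-labelled libraries and 12221, 12515, 11967 and 15526 in the knockout-labelled libraries (log2 change -1.64, SE 0.12, limma adjusted p = 2.7e-09). Npm1, a nucleolar chaperone, went from 18535 ± 1115 to 7199 ± 81.2 and Spp1, the secreted phosphoprotein osteopontin, from 12219 ± 866 to 374 ± 23.6. Within that choice of genes, the 10 largest gains added 3.72% of a library and the 10 largest losses came to -1.54%.

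**Figure D2:**
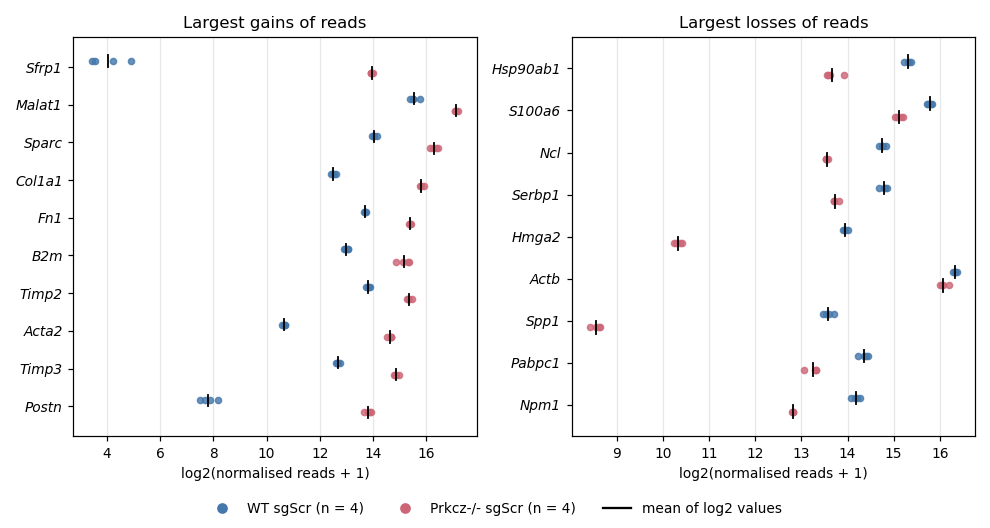
Log2 of normalised reads plus 1 (x axis) in each WT-labelled (blue, n = 4) and knockout-labelled (red, n = 4) library for genes among the 10 largest gains and the 10 largest losses of normalised reads (y axis; called genes with groups apart, without predicted genes, Rik clones, ribosomal protein and mitochondrially encoded genes), with black bars at the mean log2 value. The groups stand apart for each gene shown, and the widest gaps are those of Sfrp1 (log2 change 9.90), Postn (6.00) and Spp1 (-5.03).

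A set of genes was near silent in a group. With 3 or fewer reads over the 4 WT-labelled libraries, 226 genes were called higher, 74 of them with no WT-labelled read, and 110 reached a mean of at least 50 normalised reads in the knockout-labelled group. In the other direction 142 genes were called lower, 51 had no knockout-labelled read and 65 had a WT-labelled mean of at least 50. A gene near silent in a group passes the gene filter only if it is higher in another group. The direction of these calls was thus in large part set by the filter, and the counts only describe. Ccn5, a secreted matricellular protein, had 0, 0, 0 and 3.29 in the WT-labelled libraries and 669, 676, 657 and 725 in the knockout-labelled libraries, a ratio of 832-fold (95% counting interval 149 to 32886). Its single WT-labelled read lay in 1 library, far from the knockout-labelled values. Nnat, an imprinted membrane proteolipid of the endoplasmic reticulum, had 0, 3.61, 5.99 and 0 in the WT-labelled libraries and 917, 983, 929.5 and 1104 in the knockout-labelled libraries, 397-fold (95% counting interval 136 to 1929) higher. Ptgis, the prostacyclin synthase, had 480.5, 451, 509 and 486 in the WT-labelled libraries and 4.07, 0, 3.13 and 0 in the knockout-labelled libraries, 236-fold (95% counting interval 80.2 to 1146) lower. For both genes the groups stood far apart. By the estimate alone, 2601 tested genes (20.5%) had an absolute log2 change under 0.25. Fewer were measured closely enough for the whole interval to lie there: 162 genes (1.28%) had a 95% interval of the log2 change within -0.25 to 0.25. Calr, the chaperone calreticulin of the endoplasmic reticulum, was among them at 7740.5, 7453, 7407 and 7639 in the WT-labelled libraries and 7110.4, 7421, 6769 and 7498 in the knockout-labelled libraries (log2 change -0.071, SE 0.067, limma adjusted p = 0.36), with overlapping groups.

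**Figure D3:**
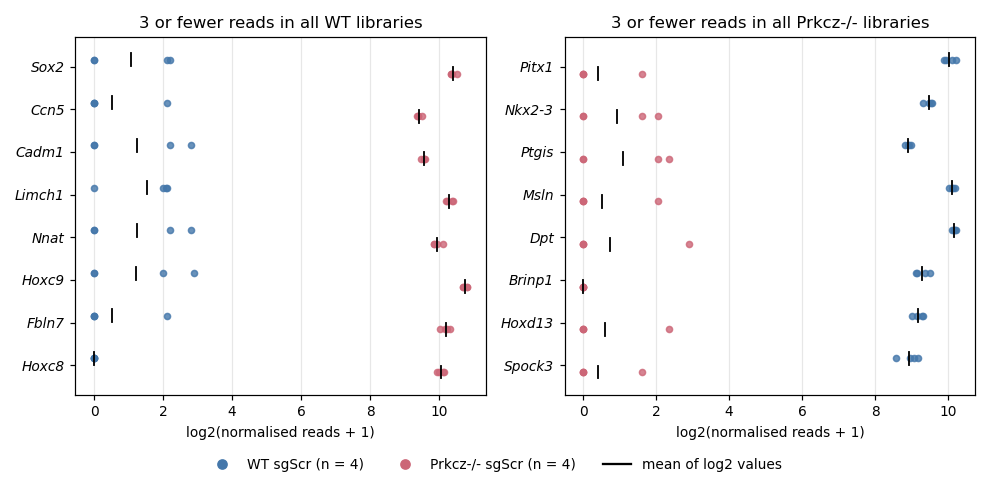
Log2 of normalised reads plus 1 (x axis) per library, blue for WT-labelled and red for knockout-labelled (n = 4 each), for the genes of highest mean among those with 3 or fewer reads summed over the libraries of the other group (y axis). Black bars mark mean log2 values. In each gene the silent group lies below 3 and the expressed group above 8.

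Transcription factors of positional and lineage identity included genes that were near silent in either group. Of 10 T-box, GATA and HAND factors tested, 6 rose and 4 fell. Hand2, a basic helix-loop-helix factor of mesenchyme, had 3.25, 7.22, 2.99 and 3.29 in the WT-labelled libraries and 703, 639, 660.3 and 599 in the knockout-labelled libraries, in normalised reads (log2 change 7.04, SE 0.43, limma adjusted p = 4.1e-10). Gata6, a zinc-finger factor of endoderm and mesoderm, had 305, 379, 413 and 319 in the WT-labelled libraries and 4.07, 0, 6.26 and 6.47 in the knockout-labelled libraries (log2 change -6.43, SE 0.47, limma adjusted p = 3.8e-09). Each was chosen with groups apart as a largest change in its direction. Tbx20, a T-box factor known from heart development, went from 17.1 ± 4.96 to 1090.4 ± 148. Of 35 homeobox factors outside the HOX clusters 18 rose and 10 fell, with Irx3, an Iroquois homeobox factor, 51.8-fold (95% counting interval 17.5 to 254) higher. The widest changes of this list were losses, those of Pitx1, a hindlimb and pituitary factor, 1550.3-fold (95% counting interval 278 to 61281) lower, and of Nkx2-3, a factor of gut mesenchyme, 523-fold (95% counting interval 144 to 4323) lower. Of 21 forkhead factors 8 rose and 7 fell, which is close to the background. Foxo3, a factor of stress and growth-factor withdrawal, went from 371 ± 28.2 to 1906 ± 74.7 and Foxp2 from 535 ± 41.8 to 10.3 ± 1.60. Of 28 mesenchymal lineage factors 16 rose, with Mef2c, a muscle and mesenchymal regulator, going from 129.8 ± 19.6 to 1856 ± 48.9, and 8 fell, with Klf5 going from 1026 ± 72.9 to 154 ± 19.8.

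Nuclear receptors and clock genes held large single changes in both directions. Of 26 nuclear receptors 13 rose (50%) and 5 fell (19.2%), with a median log2 change of 0.46. Vdr, the vitamin D receptor, had 3.25, 0, 2.99 and 16.4 in the WT-labelled libraries and 234, 279.9, 309.8 and 256 in the knockout-labelled libraries (log2 change 6.02, SE 0.56, limma adjusted p = 7.0e-08). It was near 0 in all WT-labelled libraries. Nr4a1 and Nr4a2, orphan receptors induced as immediate-early genes, fell from 248 ± 47 to 14.6 ± 10.1 and from 1143 ± 47 to 82.7 ± 19.9. Of 19 circadian clock genes 8 rose, a share of 42.1% near that of all genes, and 3 fell. The PAR bZIP factors split: Tef went from 223 ± 31 to 1275 ± 118 and Hlf from 616 ± 28.3 to 21 ± 5.39.

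Genes of atypical protein kinase C and cell polarity were called at shares close to those of all genes. Of 22 atypical PKC and polarity genes 7 rose and 7 fell, 31.8% each way beside 37.6% and 29.4% of all genes. Their median log2 change was -0.11, below the 0.12 of all genes. Prkci, the other atypical protein kinase C, had 825, 1123, 1419 and 972 in the WT-labelled libraries and 756, 697, 638 and 288 in the knockout-labelled libraries, in normalised reads (log2 change -0.93, SE 0.29, limma adjusted p = 0.0089). It was lower in all 4 knockout-labelled libraries and was named after its values were seen. Pard6b, a PAR6 adaptor that binds atypical PKC, went from 96.2 ± 23.6 to 32.4 ± 3.12 and Pard3b, a PAR3-related scaffold, from 109 ± 12.4 to 481 ± 50.1. Sqstm1, which encodes p62, a signalling scaffold and autophagy receptor, went from 2168 ± 90.7 to 6851 ± 494. The diacylglycerol branch leaned upward: of 26 genes 15 rose and 2 fell (median 0.77). Plcb1, a phospholipase C coupled to G proteins, went from 17.9 ± 3.53 to 591 ± 42.6, and Plce1, a phospholipase C that binds RAS, was 166-fold (95% counting interval 29.5 to 6603) higher.

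Receptor tyrosine kinases rose more often than they fell, 15 against 1 of 23 tested (median log2 change 0.98). Pdgfrb, a receptor for platelet-derived growth factor, had 188, 271, 284 and 296 in the WT-labelled libraries and 1708, 1490.0, 1555 and 1330.0 in the knockout-labelled libraries (log2 change 2.56, SE 0.14, limma adjusted p = 1.3e-10). Fgfr2, a receptor for fibroblast growth factors, went from 44 ± 20.2 to 399.6 ± 65, and Mertk, a receptor of phagocytosis, fell from 171 ± 10.2 to 78.3 ± 8.01. Growth factor ligands rose in 19 and fell in 11 of 38. Hgf, the ligand of the MET receptor made by stromal cells, had 214, 307, 263 and 266 in the WT-labelled libraries and 2.03, 2.92, 0 and 0 in the knockout-labelled libraries, 191-fold (95% counting interval 52.5 to 1587) lower. Only 2 knockout-labelled reads remained, and the groups stood apart. Angpt1, a ligand of the TIE2 receptor, went from 14.7 ± 1.42 to 287 ± 16, Igf1, insulin-like growth factor 1 (named after its values were seen), from 113 ± 12.4 to 1013 ± 66.8, and Ereg, an EGF receptor ligand, from 209.5 ± 22.5 to 19.9 ± 5.83.

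RAS and MAP kinase genes went the other way, with 14 higher and 23 lower of 48 (median -0.22). Dusp5, a nuclear phosphatase of ERK, had 581, 614, 709 and 624 in the WT-labelled libraries and 67.1, 40.8, 46.9 and 35.6 in the knockout-labelled libraries (log2 change -3.74, SE 0.23, limma adjusted p = 4.9e-10). Etv4, an ETS factor induced by ERK signalling, went from 423 ± 66.3 to 23.2 ± 6.57. Dusp6 and Spry2, feedback inhibitors of the same cascade named after their values were seen, went from 1587 ± 94.4 to 134 ± 54.3 and from 1532 ± 109 to 138 ± 23. All 4 fell without overlap between the groups. Dusp10, a phosphatase of p38 and JNK, rose from 30.7 ± 10.9 to 148 ± 42.9. Of 31 PI3K, AKT and mTOR genes 15 rose and 6 fell. Deptor and Sesn2, inhibitors of mTOR signalling, went from 155 ± 15.9 to 762 ± 49.1 and from 87.8 ± 17.7 to 496 ± 10.9, and Akt1 from 2021 ± 45 to 703 ± 91.9.

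Notch and Hedgehog genes leaned upward. Of 17 Notch genes 12 rose and 3 fell. Jag1, a Notch ligand, went from 83 ± 11.2 to 643 ± 124 and Notch3, the Notch receptor of mural cells, from 34.4 ± 13.6 to 237 ± 25.9, while Hes1, a classical Notch target, fell from 877 ± 83.4 to 417 ± 102. Of 10 Hedgehog genes 7 rose, among them the co-receptors Cdon going from 259 ± 40.7 to 1695 ± 54.8 and Gas1 going from 1577 ± 132 to 7628 ± 381. Ptch1, at once the receptor and a target of the pathway, was the member that fell, with 139.6, 116, 165 and 141 in the WT-labelled libraries and 109.8, 75.8, 72 and 51.8 in the knockout-labelled libraries (log2 change -0.89, SE 0.23, limma adjusted p = 0.0027). Among these members Hes1 and Ptch1 were thus lower while Jag1, Cdon and Gas1 were higher. Dlk1, also of the Notch list, fell from 876 ± 53.2 to 182 ± 12.1. The summed Notch list held 0.0572 ± 0.0022% and 0.0571 ± 0.0043% of reads. Single members do not show the state of a pathway. YAP and TAZ genes were near the background, 13 higher and 11 lower of 34, with F3, tissue factor, going from 62.5 ± 28.2 to 525 ± 150.4 and Ankrd1, a muscle ankyrin-repeat target, going from 4233 ± 222 to 1256 ± 192.

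G protein-coupled receptors rose in 19 (48.7%) and fell in 14 (35.9%) of 39, beside 37.6% and 29.4% of all genes. F2rl1, the protease-activated receptor PAR2, had 1078, 1260.3, 1377 and 1396 in the WT-labelled libraries and 6.10, 5.83, 12.5 and 0 in the knockout-labelled libraries (log2 change -7.97, SE 0.55, limma adjusted p = 1.9e-09). It went from a high level in all WT-labelled libraries to a few reads. Adra1b, an alpha-1 adrenergic receptor, rose from 14 ± 7.02 to 203 ± 23.1 and Ramp3, an accessory protein of the calcitonin receptor family, fell from 646 ± 39.3 to 12.7 ± 6.42.

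**Figure D4:**
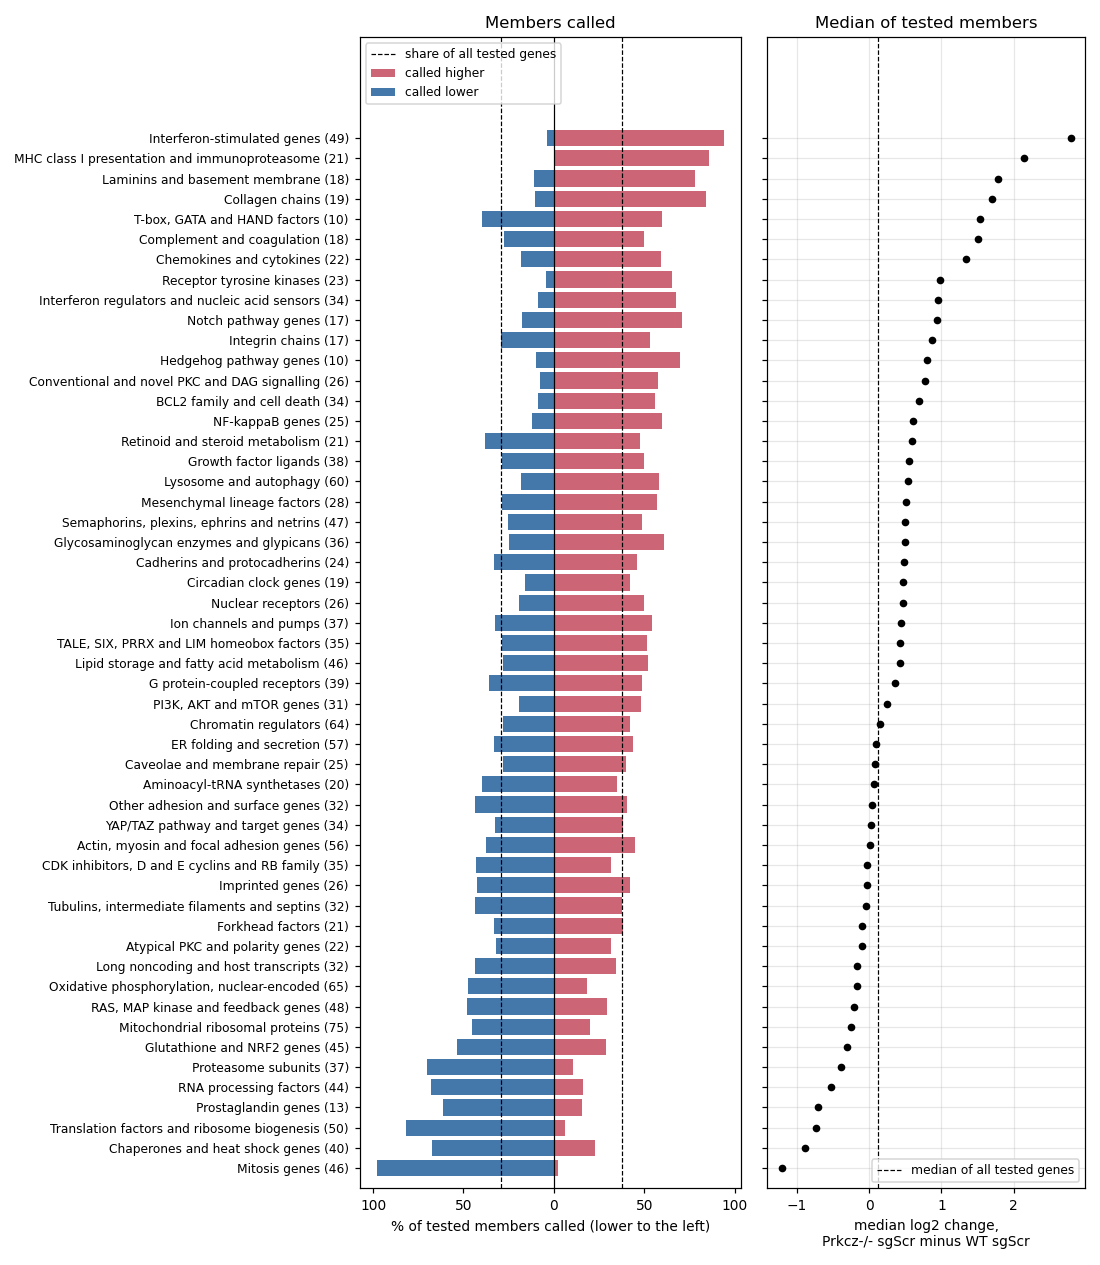
For each gene list shown (number tested in parentheses, y axis), the left panel gives the percentage of tested members called higher (red, right) and lower (blue, left), with dashed lines at the shares of all tested genes (37.6% and 29.4%), and the right panel the median log2 change with a dashed line at the median of all genes (0.12). Interferon-stimulated genes stand at the top, with a median of 2.79, and mitosis genes at the bottom, with -1.21.

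Matrix and adhesion genes held some of the largest single gains, while the summed reads of the adhesion lists were lower. Integrin chains went from 0.152 ± 0.0026% to 0.104 ± 0.0048% of reads and cadherins from 0.231 ± 0.0080% to 0.202 ± 0.012%. Other adhesion and surface genes went from 0.551 ± 0.011% to 0.452 ± 0.011%. Laminins and basement membrane genes rose in 14 and fell in 2 of 18, and their summed share of reads went from 0.249 ± 0.00915% to 0.947 ± 0.0720% (mean ± SD, n = 4). Lama4, the laminin alpha-4 chain, named after its values were seen, had 6.49, 3.61, 20.9 and 19.7 in the WT-labelled libraries and 842, 802, 839 and 832 in the knockout-labelled libraries (log2 change 6.21, SE 0.54, limma adjusted p = 3.5e-08). The groups did not overlap. Col15a1, a collagen of the basement membrane zone, was 143-fold (95% counting interval 25.3 to 5679) higher. Integrin chains split, 9 higher (52.9%) and 5 lower (29.4%) of 17. Itga8, which pairs with beta-1 to bind nephronectin and fibronectin, had 0, 0, 0 and 0 in the WT-labelled libraries and 242, 207, 250.4 and 191 in the knockout-labelled libraries, at least 91.7-fold higher. Itga11, a collagen receptor chain, was 166-fold (95% counting interval 45.5 to 1372) higher. Itga6, a laminin receptor chain, had 1629.9, 1780.2, 1793 and 1856 in the WT-labelled libraries and 236, 189.5, 238 and 194 in the knockout-labelled libraries (log2 change -3.04, SE 0.11, limma adjusted p = 4.3e-13). The collagen and fibronectin receptor chains named were thus higher and the laminin receptor chain lower in all libraries of each group.

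Cadherins moved both ways, with 11 higher (45.8%) and 8 lower (33.3%) of 24. Fat4, a giant protocadherin of planar polarity, went from 9.70 ± 1.94 to 592 ± 57.8 and Ctnnd2, delta-catenin 2, from 103 ± 10.9 to 2.31 ± 2.93. Alcam, an immunoglobulin-type adhesion molecule, had 3016, 2859.9, 2667 and 2848 in the WT-labelled libraries and 85.4, 78.7, 62.6 and 93.8 in the knockout-labelled libraries (log2 change -5.15, SE 0.18, limma adjusted p = 5.1e-13). Cadm1, another such molecule, had 0, 3.61, 5.99 and 0 in the WT-labelled libraries and 774, 755, 757 and 715 in the knockout-labelled libraries, 307-fold (95% counting interval 105 to 1493) higher. Both belong to the list of other adhesion and surface genes, of which 13 rose and 14 fell of 32. Each was chosen with groups apart as a largest change in its direction. Of 36 glycosaminoglycan genes 22 rose and 9 fell. The extracellular heparan sulfate 6-O-endosulfatases split: Sulf2 rose from 48.1 ± 9.48 to 2633 ± 174 and Sulf1 fell from 161 ± 12.3 to 44.4 ± 6.27.

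The cytoskeleton lists moved both ways, beside 37.6% higher and 29.4% lower of all genes. Of 56 actin, myosin and focal adhesion genes 25 rose (44.6%) and 21 fell (37.5%). Of 32 tubulins, intermediate filaments and septins 12 rose (37.5%) and 14 fell (43.75%). Within them Limch1, an activator of non-muscle myosin II, was 519-fold (95% counting interval 177 to 2517) higher and Enah, a promoter of actin elongation, went from 1190.3 ± 87.1 to 7517 ± 192. Nes, the intermediate filament nestin, fell from 2035 ± 70.6 to 440.2 ± 30.8. Dysf, the membrane repair protein dysferlin, went from 14.9 ± 6.76 to 499 ± 20.6 and Cavin2, a coat protein of caveolae, from 10572 ± 562 to 2825 ± 184.

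Immune genes of the fibroblasts were among the lists with the highest share of gains. Of 49 interferon-stimulated genes 46 rose and 2 fell. Their share of reads went from 0.160 ± 0.00984% to 0.949 ± 0.0452%. Mx1, a dynamin-like antiviral GTPase, had 32.5, 32.5, 23.9 and 46 in the WT-labelled libraries and 874, 741, 751 and 741 in the knockout-labelled libraries (log2 change 4.52, SE 0.18, limma adjusted p = 2.0e-12). The groups did not overlap. Oasl1, a relative of the oligoadenylate synthetases, was an exception and fell from 158 ± 16.5 to 19.6 ± 7.20.

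MHC class I presentation was higher as a whole, with 18 of 21 members called higher and 0 lower, at a share of reads of 0.240 ± 0.00488% against 0.680 ± 0.0664%. B2m, the invariant light chain of class I molecules, had 7754, 7829, 8596 and 8546 in the WT-labelled libraries and 42093, 40233, 35657 and 29677 in the knockout-labelled libraries (log2 change 2.16, SE 0.11, limma adjusted p = 4.4e-11). Tap1, a subunit of the peptide transporter, and Psmb8, an immunoproteasome subunit, both named after their values were seen, went from 89.9 ± 21.3 to 1393 ± 108 and from 40.2 ± 5.39 to 722 ± 98.4. The class I gene H2-Q7 went from 3.22 ± 2.46 to 734 ± 117, although reads can be split among near-identical H2-Q genes. All libraries of the knockout-labelled group were above all others for each of these genes. Interferon regulators and sensors rose in 23 of 34, with Irf7 going from 98.1 ± 33 to 1479 ± 108 and the nucleic acid sensor Zbp1 going from 14.4 ± 10.0 to 276 ± 33.6, and Socs1, an inhibitor of JAK kinases, was among the 3 that fell, from 111 ± 4.71 to 19.6 ± 3.57.

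Promoters of the interferon-stimulated genes are shown because the list moved nearly as a block. The core of the interferon-stimulated response element (GAAA, any 2 bases, GAAA) on either strand lay in the window from 250 bases before to 50 bases after the start of 20 of 36 such genes with a window (55.6%), of 292 of 9349 tested genes (3.12%) and of 3.49% of all 27025 genes with a window. Among called genes at least 4-fold higher the share was 7.61%, and among those at least 4-fold lower 3.35%. The higher set includes members of the interferon-stimulated list, so its share is not separate from theirs. Stretches are shown for 4 called members of large change that hold the motif before the start. The choice was not made over all chromosomes. Each stretch has 60 bases (RefSeq, GRCm38.p6, in the direction of the gene), with the matches that lie whole within it in capitals.
Ifit3: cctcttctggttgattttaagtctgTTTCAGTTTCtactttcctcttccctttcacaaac
Gbp3: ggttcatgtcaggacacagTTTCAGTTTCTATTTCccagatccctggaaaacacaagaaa
Trim30a: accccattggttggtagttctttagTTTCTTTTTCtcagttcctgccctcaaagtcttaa
Igtp: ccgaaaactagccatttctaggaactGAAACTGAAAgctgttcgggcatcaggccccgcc
They lie at chr19:34583382-34583441, plus strand, at chr3:142559980-142560039, plus strand, at chr7:104465195-104465254, minus strand and at chr11:58199496-58199555, plus strand. In Gbp3 the capitals mark a pair of overlapping matches. Ifit3, an antiviral tetratricopeptide protein, went from 171 ± 40.1 to 3402 ± 312 normalised reads, Gbp3, a guanylate-binding protein, from 109 ± 16.3 to 1911 ± 145, Trim30a from 273 ± 26.7 to 4658 ± 271 and Igtp, an immunity-related GTPase, from 173 ± 9.71 to 2909 ± 167. A match describes the letters of the window and shows no binding.

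Chemokines and cytokines rose in 13 and fell in 4 of 22 (median log2 change 1.33). Il33, a nuclear alarmin of the interleukin-1 family, had 406, 448, 320.2 and 427 in the WT-labelled libraries and 2.03, 0, 0 and 0 in the knockout-labelled libraries, 581-fold (95% counting interval 104 to 23009) lower. Cxcl5, a chemokine of neutrophils, had 0, 0, 0 and 0 in the WT-labelled libraries and 146, 137, 106 and 139 in the knockout-labelled libraries, at least 54.6-fold higher. In both genes the lower group was at or near 0 in all libraries. Ccl7, a chemokine of monocytes, went from 32.6 ± 2.74 to 444 ± 92.9. Complement and coagulation genes rose in 9 and fell in 5 of 18. C1ra, a protease of the classical pathway, went from 51.8 ± 12.4 to 1203 ± 97 and Plau from 389 ± 61.3 to 96.8 ± 23.7. NF-kappaB genes rose in 15 and fell in 3 of 25, with the inhibitor Nfkbia going from 1654 ± 126 to 6682 ± 464. Prostaglandin genes went down, 8 of 13 against 2 that rose. Ptgs2, the inducible cyclooxygenase, had 2961, 3604, 4073 and 3719 in the WT-labelled libraries and 262, 222, 197 and 162 in the knockout-labelled libraries (log2 change -4.10, SE 0.19, limma adjusted p = 1.2e-11). It fell together with Ptgis, the prostacyclin synthase described above.

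Mitosis genes were lower nearly without exception, 45 of 46, and their share of reads went from 1.12 ± 0.0248% to 0.498 ± 0.00746%. Kif23, a kinesin of the central spindle, had 3013, 2976, 2966 and 2954 in the WT-labelled libraries and 457, 432, 473 and 375 in the knockout-labelled libraries (log2 change -2.78, SE 0.082, limma adjusted p = 6.1e-14). The groups did not overlap. Anln, the cytokinesis scaffold anillin, went from 3851 ± 149 to 684 ± 125. Pttg1, the separase inhibitor securin, was the member that rose, with 451, 480.3, 473 and 506 in the WT-labelled libraries and 1289, 1134, 1102 and 1278 in the knockout-labelled libraries (log2 change 1.33, SE 0.12, limma adjusted p = 5.6e-08). The motif TTTGAA on either strand, the cell cycle genes homology region of mitotic promoters, lay in the same window of 29 of 39 mitosis genes (74.4%), of 1067 of 9349 tested genes (11.4%) and of 18.1% of all genes with a window. Stretches of 60 bases are shown for 4 called members of large change that hold the motif before the start. They run in the direction of the gene, with matches in capitals. Here too the choice was not made over all chromosomes.
Ect2: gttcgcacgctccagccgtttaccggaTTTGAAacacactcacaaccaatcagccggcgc
Cdk1: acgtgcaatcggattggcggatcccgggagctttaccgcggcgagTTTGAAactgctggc
Ube2c: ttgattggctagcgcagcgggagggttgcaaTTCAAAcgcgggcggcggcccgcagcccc
Ccnb2: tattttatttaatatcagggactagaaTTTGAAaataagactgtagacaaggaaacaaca
They lie at chr3:27153960-27154019, minus strand, at chr10:69352913-69352972, minus strand, at chr2:164769869-164769928, plus strand and at chr9:70421689-70421748, minus strand (RefSeq, GRCm38.p6). Ect2, an exchange factor of cytokinesis, went from 2387 ± 70.1 to 535 ± 90.5 normalised reads, Cdk1, the mitotic kinase, from 6202 ± 197 to 1471 ± 469, Ube2c, an E2 enzyme of the anaphase-promoting complex, from 1758 ± 61.2 to 454 ± 78.2 and Ccnb2, cyclin B2, from 1356 ± 52.7 to 403 ± 28.6. TTTGAA lay in 10.3% of windows of called genes at least 4-fold higher and 12.8% of those at least 4-fold lower, near the 11.4% of tested genes. The SOX-type motif CATTGTT lay in 2.28% of windows of genes at least 4-fold higher, 2.23% of those at least 4-fold lower and 1.84% of tested genes.

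Entry into the cycle was less uniform. Of 35 CDK inhibitors, D and E cyclins and RB family genes 11 rose and 15 fell. Cdkn1a, which encodes the CDK inhibitor p21, had 971, 903, 973 and 1078 in the WT-labelled libraries and 6728, 7368, 6913 and 6999 in the knockout-labelled libraries (log2 change 2.84, SE 0.20, limma adjusted p = 3.2e-09). Cdk6, a G1 kinase, had 4218, 3662, 4070.3 and 3749 in the WT-labelled libraries and 691, 662, 819.9 and 722 in the knockout-labelled libraries (log2 change -2.44, SE 0.095, limma adjusted p = 1.4e-12). The inhibitor was higher and the kinase lower in every library of the knockout-labelled group. Cell death genes rose in 19 and fell in 3 of 34, with the death receptor Fas going from 11.4 ± 6.63 to 231 ± 38.5 and the inhibitor of apoptosis Birc5, a mitotic gene as well, going from 5125 ± 289 to 2207 ± 189. Chromatin regulators were called at shares close to those of all genes, 27 higher (42.2%) and 18 lower (28.1%) of 64. Hmga2, an architectural protein of proliferating mesenchyme, had 16452, 15878, 15198 and 15787 in the WT-labelled libraries and 1352, 1213, 1314 and 1249 in the knockout-labelled libraries (log2 change -3.63, SE 0.07, limma adjusted p = 1.0e-15), and its relative Hmga1 went from 139.8 ± 69.5 to 4.07 ± 1.25. Cbx7, a subunit of Polycomb repressive complex 1, was at least 44.3-fold higher. Imprinted genes rose in 11 and fell in 11 of 26 (42.3% each way). Meg3, a maternally expressed noncoding RNA (chr12:109541001-109571726), had 299, 282, 251 and 200.4 in the WT-labelled libraries and 0, 0, 0 and 0 in the knockout-labelled libraries, at least 126-fold lower, and H19, another such RNA, rose from 7.29 ± 7.33 to 106 ± 15.9.

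Genes of protein production and quality control were mostly lower. Translation factors and ribosome biogenesis genes fell in 41 and rose in 3 of 50, at a share of reads of 2.07 ± 0.0540% against 1.24 ± 0.0383%. Nip7, a factor of 60S subunit assembly, had 1042, 1079.7, 1164 and 1094 in the WT-labelled libraries and 327, 294, 272 and 172 in the knockout-labelled libraries (log2 change -2.07, SE 0.18, limma adjusted p = 2.8e-08). Chaperones and heat shock genes fell in 27 and rose in 9 of 40, at 1.45 ± 0.0330% against 0.672 ± 0.0223% of reads. Hspa4l, of the HSP110 family, fell from 3202 ± 109.5 to 731 ± 132 and the small heat shock proteins Hspb6 and Cryab rose from 265 ± 28.1 to 2012 ± 220.5 and from 222 ± 43.4 to 852 ± 99.3. The large ATP-driven chaperones and the small ones named thus moved in opposite directions. Proteasome subunits fell in 26 and rose in 4 of 37, with Psmc1 going from 2796 ± 150.5 to 1412 ± 181. RNA processing factors fell in 30 and rose in 7 of 44, with Hnrnpc, which binds nascent transcripts, going from 5601 ± 193 to 1772 ± 45.5. Aminoacyl-tRNA synthetases split into 7 that rose and 8 that fell of 20, with Sars going from 1163 ± 69 to 2431 ± 160.0 and Vars going from 899 ± 78.4 to 326 ± 47.5.

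Mitochondrial genes encoded in the nucleus leaned down by less. Oxidative phosphorylation genes fell in 31 and rose in 12 of 65 (median log2 change -0.18), with Cox6c, a subunit of cytochrome c oxidase, higher, from 4460.2 ± 268 to 9795 ± 542, and Atp5j, a subunit of ATP synthase, lower, from 1229 ± 46.4 to 445 ± 76.7. Mitochondrial ribosomal proteins fell in 34 and rose in 15 of 75. Transcripts encoded in mitochondria made up 10.6 ± 0.0869% and 11.2 ± 0.520% of reads (SD, n = 4), which an exact two-sided permutation test did not separate (p = 0.1429). Lysosome and autophagy genes went up instead, 35 higher and 11 lower of 60. Grn, the lysosomal and secreted protein progranulin, had 932, 921, 952 and 1009 in the WT-labelled libraries and 4917, 5683, 5007 and 6669 in the knockout-labelled libraries (log2 change 2.54, SE 0.12, limma adjusted p = 1.6e-11). The cathepsins split, with Ctsf going from 15.7 ± 4.08 to 299.8 ± 49.9 and Ctsk, a collagen-degrading protease, going from 156 ± 24.8 to 7.86 ± 5.75.

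Redox and lipid genes held large single changes. Glutathione and NRF2 genes fell in 24 and rose in 13 of 45. Mgst1, a microsomal glutathione transferase, had 6.49, 7.22, 2.99 and 6.57 in the WT-labelled libraries and 512, 429, 426 and 327 in the knockout-labelled libraries (log2 change 6.00, SE 0.26, limma adjusted p = 5.2e-12), and Gsr, glutathione reductase, fell from 304 ± 57.8 to 73.5 ± 18.9. Retinoid and steroid genes rose in 10 (47.6%) and fell in 8 (38.1%) of 21. Crabp2, which carries retinoic acid to its receptors, was 179-fold (95% counting interval 31.8 to 7099) higher and Dhrs3, a retinal reductase, went from 16.5 ± 6.74 to 962 ± 43.2. Of 46 lipid genes 24 rose, with the lipocalin Apod going from 5.01 ± 2.20 to 338 ± 23.2, and 13 fell, with Elovl6, a fatty acid elongase, going from 1077 ± 45.6 to 239.7 ± 38.3.

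Small nucleolar RNAs fell more often than they rose, an observation made after the values were seen. Many RNAs of this class guide chemical modification of ribosomal RNA. Of 52 genes annotated as such RNAs 42 fell and 5 rose. Their median log2 change was -3.83, against 0.097 for 11387 protein-coding genes (slightly below 0 with TMM or quantile scaling). Their share of reads went from 0.0479 ± 0.00215% to 0.0165 ± 0.00131%. A gene near 0 in a group passes the gene filter only if it is higher in another group. The counts, median and share of these RNAs thus only describe. Snora73b had 672, 607, 634 and 634 in the WT-labelled libraries and 16.3, 17.5, 18.8 and 9.71 in the knockout-labelled libraries (log2 change -5.30, SE 0.32, limma adjusted p = 3.5e-10). Snord13 had 555, 495, 575 and 536 in the WT-labelled libraries and 12.2, 20.4, 28.2 and 35.6 in the knockout-labelled libraries (log2 change -4.53, SE 0.29, limma adjusted p = 6.8e-10). In both the WT-labelled libraries were all higher. Most such RNAs lie in introns of host genes, with which reads could be shared. Rpph1, the RNA of ribonuclease P, went from 211 ± 28 to 8.29 ± 3.26. These RNAs carry no poly(A) tail in their mature form, and how an oligo(dT) method came to count them was not tested. Processed pseudogenes were also lower more often than higher, with 41 that fell and 7 that rose of 162 and a median of -0.43, and antisense and sense-intronic transcripts had medians of 0.77 and 0.79.

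The median change differed between chromosomes, which was also examined only after the values were known. It ran from a log2 change of -0.42 on chromosome 14 to 0.55 on chromosome 1. The tested genes of chromosome 1 had median deviations from the mean of the 8 libraries of -0.23, -0.27, -0.22 and -0.27 in the WT-labelled libraries and 0.32, 0.26, 0.31 and 0.23 in the knockout-labelled libraries, on the log2 scale. Those of chromosome 14 had 0.22, 0.26, 0.28 and 0.25 in the WT-labelled libraries and -0.15, -0.20, -0.21 and -0.29 in the knockout-labelled libraries. In both, the groups did not overlap. On chromosome 1, 459 of its 834 tested genes rose and 140 fell, and on chromosome 14, 73 of its 401 tested genes rose and 204 fell. Chromosomes 15, 7, 3 and 19 stood at 0.45, 0.42, 0.40 and 0.39, chromosomes 8 and 9 at -0.35 and -0.32, chromosome 13 at 0.15 without overlap (slightly negative with quantile scaling), and for chromosomes 5, 6, 10, 16, 17 and 18 the libraries of the groups overlapped.

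**Figure D5:**
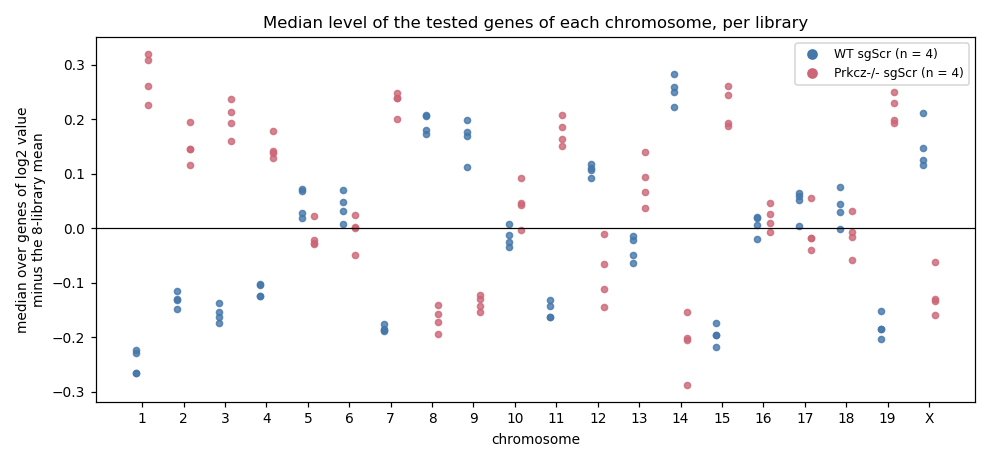
Median over the tested genes of each chromosome (x axis) of the log2 value minus the gene's mean over the 8 libraries (y axis), a point per library, blue for WT-labelled and red for knockout-labelled (n = 4 each). Chromosomes 1, 2, 3, 4, 7, 11, 13, 15 and 19 lie higher (13 not with quantile scaling, where its median turned slightly negative) and 8, 9, 12, 14 and X lower in the knockout-labelled libraries without overlap.

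Within chromosome 12 the change was uneven, and the boundary at 90 Mb and the genes named here were chosen after the values were seen. The 305 tested genes before it had a median log2 change of 0.038 and the 111 from it on -0.88, with 11 higher and 74 lower there. The far part stood at 0.42 to 0.54 in the WT-labelled libraries and at -0.44 to -0.37 in the knockout-labelled ones, on the log2 scale of deviations. Several of the large losses named above lie in it, among them Akt1 (chr12:112653821-112674884) and Meg3. Hsp90aa1, the inducible cytosolic HSP90 (chr12:110690605-110702728), had 10228, 10244, 9496 and 10057 in the WT-labelled libraries and 3433, 3458, 3461 and 3945 in the knockout-labelled libraries (log2 change -1.49, SE 0.087, limma adjusted p = 2.3e-10). Eif5, an initiation factor (chr12:111538016-111546752), went from 5854 ± 238 to 1997 ± 50.5. Gene copy number was not measured, and its part in these medians was not tested.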

How the data were processed

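Transcripts of cultured mouse colon fibroblasts were sequenced from their 3' ends (QuantSeq, forward version, from 200 ng of total RNA, 75 nt reads), per the labels' protocols. Per the submitters' processing notes, GRCm38 was the genome build. Aligner, counter and any use of strand or molecular identifiers in counting are not named in the labels. The authors deposited 1 table of signal normalised for depth, with a column total of 10000000 for each library. Dividing by the smallest step gave whole reads for 100% of values within a tolerance of 0.01 read, and depths of 2.67 to 5.20 M reads.

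The mean filter of 10 left 12676 genes. Values were taken to log2 after adding 1, which understates changes of low genes, and fitted as group means of all 12 libraries with limma 3.58.1 (trend, R 4.3.3). Genes were called at a Benjamini-Hochberg adjusted p under 0.05. EdgeR 4.0.16 and DESeq2 1.42.0 on the recovered reads were alternatives. Genes with 0 reads in a group have a lower bound of fold against 3 reads over the group, and those with 1 to 3 reads a ratio with an exact 95% interval, which cover counting error only.

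Genes were named by rule: Prkcz, Sox2, Sfrp1 and Sfrp2, the 10 largest gains and losses of reads among called genes with groups apart (predicted genes, Rik clones, ribosomal protein and mitochondrially encoded genes left out), up to 2 called members per list and direction with a mean of at least 50 and groups apart, the 8 highest near-silent genes each way, and the 8 most abundant with an interval within 0.25. Members, lists and tests were chosen with earlier results of these data known. Alternatives by chromosome and gene class were added after seeing the data. Among the genes printed, Cdon, Enah, Fgfr2, Hgf, Hmga2, Igtp, Kcnk2, Pard3b, Sema3a and Snora73b overlap another tested gene on the same strand and Atp5j, Cbx7, Cox6c, Cryab, Dnm3os, Dusp10, Fgfr2, Grn, Hand2, Hmga1, Hspb6, Irf7, Nnat, Plod2, Sqstm1, Sulf2 and Tap1 on the other strand. These, and the H2-Q, Ly6 and Gbp families with near-identical copies, are uncertain. Some results under the rule are not reported here.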

Additional observations from a re-analysis of the deposited data

Results flagged for a closer look

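In 22 of 302 groups of 4 libraries examined (the printed genes and the shares of reads, in both groups), the highest or lowest library stood apart from the other three by more than Dixon's 95% critical share of the range. Chance alone gives about 1 in 20 such groups. Values are in normalised reads, and the genes concerned were called with the same direction when each library was left out, except Gm42418.

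Knockout-labelled replicate 4 stood apart in 5 genes. It was lowest for Anln (498.3, the others 729 to 773) and F3 (300.9, the others 580.3 to 616.5), and highest for Birc5 (2488.4, the others 2087.7 to 2138.4), Hsp90aa1 (3944.6, the others 3433.2 to 3461.2) and Hsp90ab1 (15526.1, the others 11967.2 to 12514.8). This library also had the highest chi-square per degree of freedom against its group, 3.05 to 4.71, where the other pairs of the group had 1.43 to 2.11. Without it 8200 genes were called.

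Knockout-labelled replicate 1 stood apart with 27.28% of reads in its 100 most abundant genes (the others 29.11 to 29.2%), and was highest for Deptor (835.4, the others 732.3 to 747.5), for Mx1 (874.1, the others 740.6 to 751.1) and for Il33 (2.033, a single read, the others 0), as for Pitx1 (2.033). It was lowest for Gm42418 (270219.5, the others 321304 to 329284.6), whose log2 change was -0.41 without it and no longer past the threshold. Knockout-labelled replicate 2 was lowest for Enah (7231.3, the others 7584.0 to 7643.3) and Unc5c (137, the others 161.8 to 165.9).

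Among the WT-labelled libraries, replicate 1 was lowest for Etv4 (324.7, the others 444.2 to 463.2), replicate 3 was highest for Dcn (1514.4, the others 1320.8 to 1336.1) and replicate 4 for Igf1 (131.4, the others 104.8 to 108.3). The remaining cases rest on few reads. Replicate 2 was highest for Hand2 (7.222, the others 2.993 to 3.285) and lowest for Limch1 (0, the others 2.993 to 3.285). A single read gave the highest value for Ccn5 (3.285 in replicate 4), Col15a1 (2.993 in replicate 3) and, in replicate 2, Crabp2 and Plce1 (3.611 each), with the others at 0.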

How the results depend on the processing

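The counts of called genes stayed within 1.5 times of 8493 under all 20 alternatives, from 7138 of 10132 genes with a filter at a mean of 50 to 9469 of 21994 without a filter. Leaving out each library in turn gave 8066 to 8200, edgeR on recovered reads 8550, DESeq2 8173 and the 8 compared libraries alone 9022. Scaling moved the balance more than the number: 56.05% of calls were higher as deposited, 50.22% with TMM and 47.90% with quantile scaling, and the median of all genes went from 0.12 to 0.014 and -0.045. Relative to these shifts, lists with medians near 0 (actin, YAP and TAZ, caveolae, aminoacyl-tRNA synthetases, endoplasmic reticulum folding, other adhesion genes) changed sign in some scalings, and the retinoid list went to -0.32 with the filter at 50. Of the printed genes none changed direction and Calr and Gm42418 crossed the threshold: Calr was past it at a log2 change of -0.18 with TMM and -0.16 with DESeq2, and Gm42418 was short of it at -0.097 with quantile scaling and at -0.44 to -0.41 without WT-labelled replicate 2 or 3 or knockout-labelled replicate 1. The chromosome 13 median turned slightly negative with quantile scaling, and that of chromosome 1 went to 0.43 over abundant protein-coding genes.

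With the replicate number as a block 8508 genes were called. The numbers do not pair the samples, since same-numbered libraries correlated at -0.04 to 0.059 in their deviations. Libraries of 2.77 to 4.92 M reads limit genes of few reads most.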

Other observations

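Genes of axon guidance, ion transport and secretion, which fibroblasts also express, held further large differences. Of 47 semaphorins, plexins, ephrins and netrins 23 rose and 12 fell, beside 37.6% and 29.4% of all genes. The secreted semaphorins split: Sema3d went from 18 ± 3.91 to 250.1 ± 27.8 normalised reads (mean ± SD, n = 4) and Sema3a, a repellent ligand of neuropilin 1, from 3125 ± 77.5 to 492 ± 52.4. Sema5a fell from 1048 ± 55.3 to 130.1 ± 21.8, and Unc5c, a netrin receptor, rose from 18.6 ± 6.59 to 157 ± 13.3. Of 37 ion channels and pumps 20 rose and 12 fell. Cacna1h, a T-type calcium channel, had 0, 0, 0 and 0 in the WT-labelled libraries and 173, 189.5, 194 and 223 in the knockout-labelled libraries, at least 78.3-fold higher. Kcnk2, the potassium channel TREK-1, fell from 234 ± 29.1 to 13 ± 5.15 and Ano1, a calcium-activated chloride channel, from 138 ± 36.3 to 7.35 ± 3.55.

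Among 57 genes of folding and secretion in the endoplasmic reticulum 25 rose and 19 fell. Collagen-modifying enzymes were on both sides, with P4ha3, a prolyl hydroxylase subunit, going from 44.8 ± 13.4 to 317 ± 21.5 and Plod2, a lysyl hydroxylase, going from 1279 ± 67.3 to 399 ± 43. Creb3l1, a membrane-bound factor of collagen-secreting cells, rose by 2.85 on the log2 scale. Of 32 long noncoding and host transcripts 11 rose and 14 fell, with Dnm3os, an antisense transcript of Dnm3, going from 407 ± 54.7 to 2905 ± 79.1.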
